A study of Rattus norvegicus with 14 samples.

Results

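The heat shock chaperones of the cytosol and of mitochondria were followed in the colon of rats with chemically induced colitis. The 10 genes were Hsf1, Hsph1, Hsp90aa1, Hsp90ab1, Hspa8, Hspb1, Dnajb1, Bag3, Hspd1 and Hspe1, chosen by name with earlier results of these data known, and all 10 were found among the 26319 genes of the table. All animals were male Wistar rats, and all tissue was distal colon taken 72 h after treatment. The 2 controls (animals 216 and 217) received vehicle and gave 1 library each, from random colon sections. The 6 other animals (218 to 223) received 2,4,6-trinitrobenzene sulphonic acid (TNBS) into the colon, a hapten that damages the epithelium and leaves inflamed patches between areas of normal appearance, and each gave 1 library from an inflamed region (I) and 1 from a separate, uninflamed region (UI). The controls (C) and both kinds of region were compared in the 3 directions I-UI, I-C and UI-C. Total RNA was depleted of ribosomal RNA before sequencing. Each library is a piece of whole colon wall, in which fewer cells of a type and less RNA per cell cannot be told apart.

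Heat shock proteins are molecular chaperones, which hold unfolded proteins in a soluble state, refold them or pass them on for degradation. Their best known regulator is the transcription factor HSF1, which is held inactive in unstressed cells by chaperones and, when unfolded proteins draw these away, forms trimers that bind arrays of the short unit nGAAn (the heat shock element) in the promoters of chaperone genes. Some chaperone genes, such as those of the inducible HSP70 proteins, are nearly silent until that happens, and others, such as Hspa8 and Hsp90ab1, are expressed in most cells at all times. In the gut, heat shock proteins are known for protecting the epithelium against oxidants and injury.

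The promoter sequences of 4 of the genes show how this unit is arranged. Hsph1, Dnajb1 and Bag3 are shown because they passed a test below, and Hspe1 because it shares its array with Hspd1. They come from the RefSeq annotation of the rat assembly GRCr8, run 5′ to 3′ on the strand of the gene, and end or begin at the stated distance before its start. Capitals mark GAANNTTC or TTCNNGAA, the 2 ways in which neighbouring nGAAn units can face each other, each of which reads the same on both strands and overlaps the other in longer arrays.
Hsph1, bases 120 to 1 before the start, chr12:10427248-10427367, plus strand: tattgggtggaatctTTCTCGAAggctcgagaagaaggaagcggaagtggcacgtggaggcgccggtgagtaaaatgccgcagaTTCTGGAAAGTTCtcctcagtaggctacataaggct
Hspe1, bases 100 to 1 before the start, chr9:64084227-64084326, plus strand: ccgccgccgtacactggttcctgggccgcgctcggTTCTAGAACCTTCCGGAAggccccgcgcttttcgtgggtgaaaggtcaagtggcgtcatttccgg
Dnajb1, bases 80 to 1 before the start, chr19:41431142-41431221, minus strand: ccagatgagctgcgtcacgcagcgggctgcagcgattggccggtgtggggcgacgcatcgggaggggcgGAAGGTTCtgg
Bag3, bases 170 to 91 before the start, chr1:192533290-192533369, plus strand: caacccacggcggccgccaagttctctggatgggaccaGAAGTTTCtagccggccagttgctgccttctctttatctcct

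Of the 10 genes, 8 had a promoter window in that annotation (250 bases before to 50 after the start), all but Hsf1 and Hsp90aa1, and 7 of the 8 held GAANNTTC or TTCNNGAA, against 15.9% of the 33469 windows in the rat annotation. An array of 3 facing units in a row stood in 4 of the 8, namely Hsph1, Hspa8, Hspd1 and Hspe1, against 0.798% of all windows. Hspd1 and Hspe1 lie head to head with 289 bases between their starts, so their windows overlap by 211 bases and the 18-base array printed for Hspe1 is the same array that stands at -242 to -225 from the start of Hspd1. Hspb1 held GAANNTTC at 2 places and Dnajb1 at 2 places, 1 of them after its start, whereas Bag3 held it at 1 place. The window of Hsp90ab1 held neither. A match of letters is not a measured binding site, a missing match does not show that there is none, and no binding was measured.

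Among the 10 genes, Hsph1 and Hsp90aa1 rose in the inflamed relative to the uninflamed regions, by 2.61-fold and 2.05-fold, and none fell. Over all genes tested, 11.6% were higher and 12.8% lower. Whether 2 of 10 differs from that share was not tested. With 1 animal left out, the call of Hsph1 was lost in 2 of 8 fits and that of Hsp90aa1 in 4 of 8. In the fit within animals Hsp90aa1 kept its call but not the 2-fold size. Hsph1 encodes HSP105, an HSP110 protein that exchanges the nucleotide of HSP70 and thereby helps it to dissolve aggregates, and Hsp90aa1 encodes the inducible HSP90 alpha of the cytosol. Against the 2 controls the picture differed: Dnajb1 and Bag3, which encode partners of HSP70, fell in the inflamed regions by 1.996-fold and 1.78-fold. In that comparison 10.0% of all genes were lower. The uninflamed regions were at -1.26 for Dnajb1 and -0.52 for Bag3 (log2, UI-C), without passing edgeR's quasi-likelihood test. The I-C call of Dnajb1 was lost under 9 of 14 alternatives and that of Bag3 under 5 of 14. Hspd1 and Hspe1, the mitochondrial chaperonin pair, had lower means in the inflamed than in the uninflamed regions without passing the test. Levels are given as CPM (counts scaled to a common library size) with composition scaling by trimmed mean of M-values (TMM), log2 fold changes are given ± their standard error (SE), and calls are from edgeR's quasi-likelihood test with Benjamini-Hochberg adjustment over all 18678 genes tested.

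**Figure D1:**
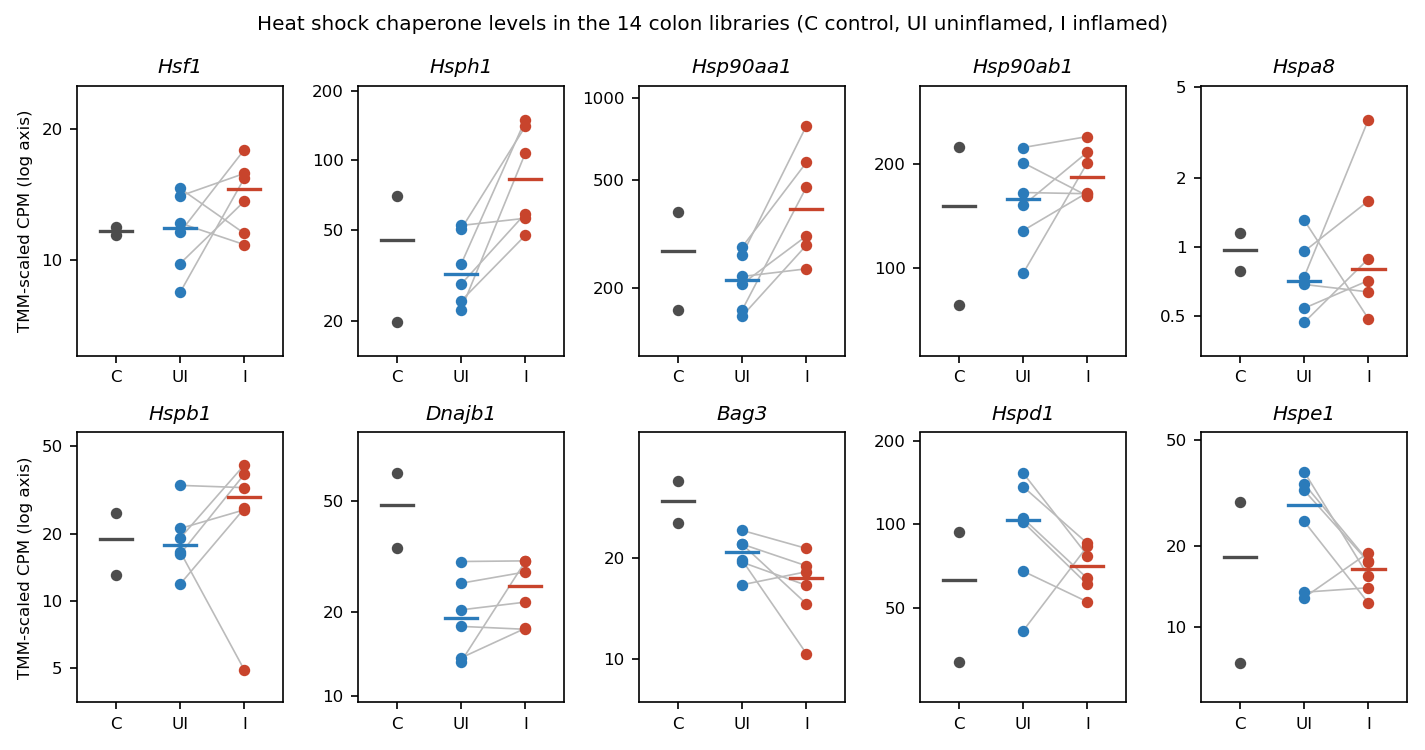
TMM-scaled CPM (log axis, different range in each panel) of the 10 genes in each library, with controls (C, n = 2), uninflamed (UI, n = 6) and inflamed (I, n = 6) regions. Grey lines join the 2 regions of an animal and horizontal bars are medians. The line rises in 6 of 6 animals for Hsph1 and Hsp90aa1, and both controls lie above every other point for Dnajb1 and Bag3.

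The libraries held 6734968 to 13792657 counted reads, with 12013023 and 12041314 in the controls. All 10 genes passed the filter on low counts. In I-UI, 2 of the 10 were higher and 0 lower at an adjusted p under 0.05, where 11.6% of all genes tested were higher and 12.8% lower. With the further demand of a 2-fold change, 2 of the 10 were higher, against 6.15% of all genes. The median log2 fold change of the 10 was 0.26, against 0.04 over all genes tested. Of the 10 genes, none had every inflamed library above every uninflamed library, a pattern shown by 4.32% of all genes.

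The master regulator Hsf1 itself stood at 11.4 and 11.9 CPM in the controls. It ranged from 8.44 to 14.6 CPM (median 11.9) in the uninflamed and from 10.9 to 17.98 CPM (median 14.6) in the inflamed regions. The groups overlapped, and the inflamed level was higher in 4 of 6 animals. In I-UI its log2 fold change was 0.27 ± 0.17 (SE, adjusted p = 0.272), with a 95% interval from -0.10 to 0.63 that leaves out a 2-fold change in either direction. HSF1 is controlled mostly as a protein, so its mRNA level says little about its activity.

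Hsph1 was at 22.5 to 52.1 CPM (median 32.2) in the uninflamed and at 47.2 to 149.9 CPM (median 83.1) in the inflamed regions, and at 70.2 and 19.8 CPM in controls 216 and 217. All inflamed libraries but that of animal 218 lay above the highest uninflamed one, and the control values spanned the whole uninflamed range. Within an animal the inflamed region held from 1.07 times (animal 221) to 4.75 times (animal 219) the uninflamed level. In I-UI its log2 fold change was 1.39 ± 0.37 (SE, adjusted p = 0.0141), a 2.61-fold higher level with a 95% interval from 1.51 to 4.54. In I-C it was 1.05 ± 0.55 (SE, adjusted p = 0.223), so that the comparison with the 2 controls did not pass the test.

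Hsp90aa1 was at 158.1 to 283.4 CPM (median 214.2) in the uninflamed and at 235.7 to 788.7 CPM (median 390.5) in the inflamed regions, with 379.8 and 166.8 CPM in controls 216 and 217. The inflamed level was higher in 6 of 6 animals, by 1.07 times in animal 221 and by 2.97 times in animal 223. In I-UI its log2 fold change was 1.04 ± 0.31 (SE, adjusted p = 0.0253), with an interval of the fold from 1.29 to 3.27. With the animal as a block it was 0.94 (adjusted p = 0.0184), below the 2-fold line, which takes the count past that line from 2 to 1, while Hsph1 stayed above it at 1.32 (adjusted p = 0.00982). Both genes had the same 3 inflamed libraries on top, those of animals 219, 220 and 223. Both calls rest on them in part: without animal 219 the adjusted p was 0.058 for Hsph1 and 0.0837 for Hsp90aa1, and without animal 223 it was 0.0688 and 0.0848. For Hsp90aa1 the adjusted p was also 0.0539 without animal 220 and 0.053 without animal 222. The log2 fold change over all omissions of 1 animal, controls included, ranged from 1.20 to 1.61 for Hsph1 and from 0.86 to 1.15 for Hsp90aa1.

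Markers of other cells moved in the same comparison, where 11.6% of all genes tested were higher and 12.8% lower. Of 15 epithelial markers, 0 were higher and 15 lower in I-UI, with a summed level of 244 to 5238 CPM in the inflamed, 4709 to 9034 CPM in the uninflamed and 4706 to 8671 CPM in the control libraries. Of 15 myeloid and neutrophil markers, 14 were higher, with a summed level of 662 to 2557 CPM in the inflamed, 114 to 358 CPM in the uninflamed and 110.0 to 124.9 CPM in the control libraries. Of 11 smooth muscle markers 7 were lower, of 10 endothelial markers 8 were higher, and of 10 fibroblast markers 6 were higher. No marker of these lists was at 0 in every library, and Fpr1 was the only 1 at 0 in any. Of 13 immediate early genes, which respond within minutes to growth factors or handling, 9 were higher and 1 lower, with summed levels of 211 to 688 CPM in inflamed, 109 to 166 CPM in uninflamed and 170 to 280 CPM in control libraries. The part of these shifts in the chaperone results was not tested.

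The constitutive isoform gene Hsp90ab1 did not pass the test in I-UI, and the difference between both isoform genes did not pass its own. Hsp90ab1 was at 96.7 to 223.3 CPM (median 158.7) in the uninflamed, at 161.8 to 240.2 CPM (median 183.7) in the inflamed and at 224.3 and 78.1 CPM in the control libraries. The groups overlapped in part, with 3 uninflamed libraries below the lowest inflamed one, and its log2 fold change in I-UI was 0.25 ± 0.26 (SE, adjusted p = 0.51), with an interval of the fold from 0.81 to 1.73. The log2 ratio of Hsp90aa1 to Hsp90ab1 counts, which does not depend on scaling between libraries, was 0.45 ± 0.43 (SD, n = 6) in the uninflamed and 1.10 ± 0.53 (SD, n = 6) in the inflamed regions, and 0.76 and 1.09 in the controls. It was higher in the inflamed region in 5 of 6 animals, with animal 218 the exception at -0.48. The mean difference of 0.65 gave p = 0.0938 in a two-sided exact permutation test over 64 sign flips, or 0.188 after adjustment over the 2 ratios tested, where the smallest p that 6 animals allow is 0.0312. Taken as unpaired, the same values gave p = 0.0476 by a two-sided exact permutation test over 924 splits.

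**Figure D2:**
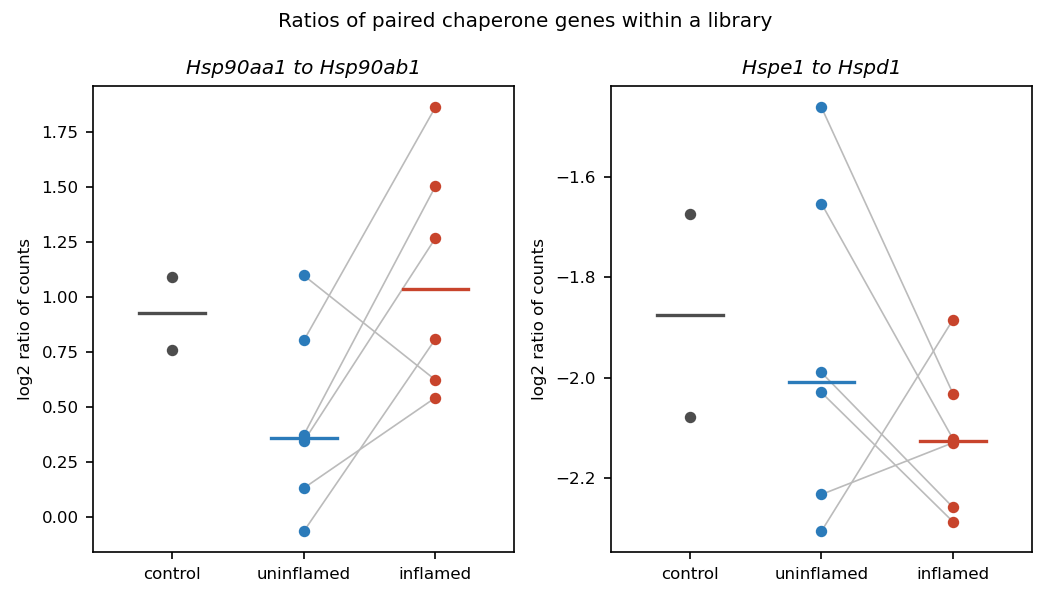
Log2 ratio of counts within a library for Hsp90aa1 to Hsp90ab1 and for Hspe1 to Hspd1 in control (n = 2), uninflamed (n = 6) and inflamed (n = 6) libraries, with lines joining the regions of an animal and bars at the medians. The first ratio rises in 5 of 6 animals and the second rises in 2 of 6.

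Hspa8 and Hspb1 complete the cytosolic chaperones. Hspa8 encodes HSC70, the constitutive HSP70 that folds new proteins and uncoats clathrin vesicles, and its row held only 5 to 29 reads in any library. Its levels were 0.47 to 1.31 CPM (median 0.71) in the uninflamed and 0.49 to 3.60 CPM (median 0.80) in the inflamed regions, with 1.15 and 0.79 CPM in the controls. The RefSeq table lists 33 rat pseudogenes named after Hspa8, and reads that matched more than 10 places were dropped in mapping. The part of this loss in the low counts was not tested, so the row is not taken as the level of the gene. Its log2 fold change in I-UI was 0.68 ± 0.48 (SE, adjusted p = 0.317), and the inflamed library of animal 220 stood alone at the top. By the same table Hsp90ab1 has 23 such pseudogenes, Hspd1 20, Hsp90aa1 16 and Hspe1 1, and the other 5 genes have 0.

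Hspb1 encodes HSP27, a small heat shock protein that forms large oligomers and steadies actin filaments. It was at 11.9 to 33.3 CPM (median 17.98) in the uninflamed, at 4.87 to 41.3 CPM (median 29.4) in the inflamed and at 25.1 and 13.1 CPM in the control libraries. The inflamed library of animal 218 was the lowest of all 14 and 3 other animals had levels at least 2-fold higher in the inflamed region, namely 219, 220 and 222. In I-UI its log2 fold change was 0.50 ± 0.38 (SE, adjusted p = 0.366), and its interval of the fold, from 0.80 to 2.50, leaves room for both no change and a doubling.

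Dnajb1 and Bag3 differed from the rest of the 10 genes in that both controls lay above every other library. Dnajb1 encodes HSP40, the J-domain protein that delivers unfolded proteins to HSP70, and it stood at 62.5 and 33.9 CPM in controls 216 and 217. It ranged from 13.3 to 30.3 CPM (median 19.0) in the uninflamed and from 17.3 to 30.4 CPM (median 24.7) in the inflamed regions, so that these 2 groups overlapped and both lay below the controls. Bag3 encodes a nucleotide exchange factor that links HSP70 to small heat shock proteins and to autophagy, and it stood at 34.0 and 25.5 CPM in the controls. It ranged from 16.7 to 24.3 CPM (median 20.9) in the uninflamed and from 10.4 to 21.4 CPM (median 17.4) in the inflamed regions. Every inflamed library below both controls was seen for 2 of the 10 genes and for 14.3% of all genes, and every uninflamed library below both controls for 2 of the 10 and for 6.16% of all genes. Both counts concern the same 2 genes and the same 2 controls, and the share of all genes with both patterns together was not counted.

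In I-C, Bag3 fell by 0.83 ± 0.23 on the log2 scale (SE, adjusted p = 0.0239), a 1.78-fold lower level. Dnajb1 fell by 1.00 ± 0.32 on the log2 scale (SE, adjusted p = 0.0452), a 2.00-fold lower level after rounding that lay just short of the 2-fold line. Thus 0 of the 10 genes were higher and 2 lower at an adjusted p under 0.05, where 6.95% of all genes were higher and 10.0% lower, and 0 passed the 2-fold threshold too, against 13.7% of all genes in either direction. By edgeR's exact test and by DESeq2 that count was 1, Dnajb1, and 2 of the 10 had an unadjusted p under 0.05, against 29.7% of all genes. The median of the 10 was 0.31, against 0.10 over all genes. The calls rest on single animals, controls included: without control 216 the log2 fold changes were -0.49 for Dnajb1 and -0.60 for Bag3 (adjusted p = 0.566 and 0.289), and without control 217 they were -1.38 and -1.03 (adjusted p = 0.0555 and 0.0592). The call of Dnajb1 was also lost without TNBS animal 218, 220, 221 or 222 (adjusted p from 0.0549 to 0.0973), and that of Bag3 without animal 219 (adjusted p = 0.053). Without TMM, scaled by library totals only, the median of all genes in I-C moved up by 0.62, and Dnajb1 was at -0.42 (adjusted p = 0.416) and Bag3 at -0.22 (adjusted p = 0.639).

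In UI-C, 0 of the 10 genes passed edgeR's quasi-likelihood test at an adjusted p under 0.05, where 0.150% of all genes passed, and 2 of the 10 had an unadjusted p under 0.05, against 8.89% of all genes. They were Dnajb1, with a log2 fold change of -1.26 ± 0.32 (SE, unadjusted p = 0.00126, adjusted p = 0.166), and Bag3, at -0.52 (unadjusted p = 0.0416, adjusted p = 0.54). By edgeR's exact test, run for each pair of groups alone, Dnajb1 passed with an adjusted p of 0.0223, and by DESeq2 it was at 0.052. In I-UI neither passed the test, with log2 fold changes of 0.26 for Dnajb1 (adjusted p = 0.456) and -0.31 for Bag3 (adjusted p = 0.209). The controls were also far apart from each other for most of the 10 genes, with control 216 above control 217 in 10 of 10 genes, as for Hspe1 at 29.3 against 7.35 CPM. The share of all genes with control 216 higher was not counted. Controls 216 and 217 also differed in TMM factor (0.866 and 0.633) and in the reads taken by their 10 top genes (17.9% and 24.6%). The I-C and UI-C comparisons share these controls and are not independent of each other.

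**Figure D3:**
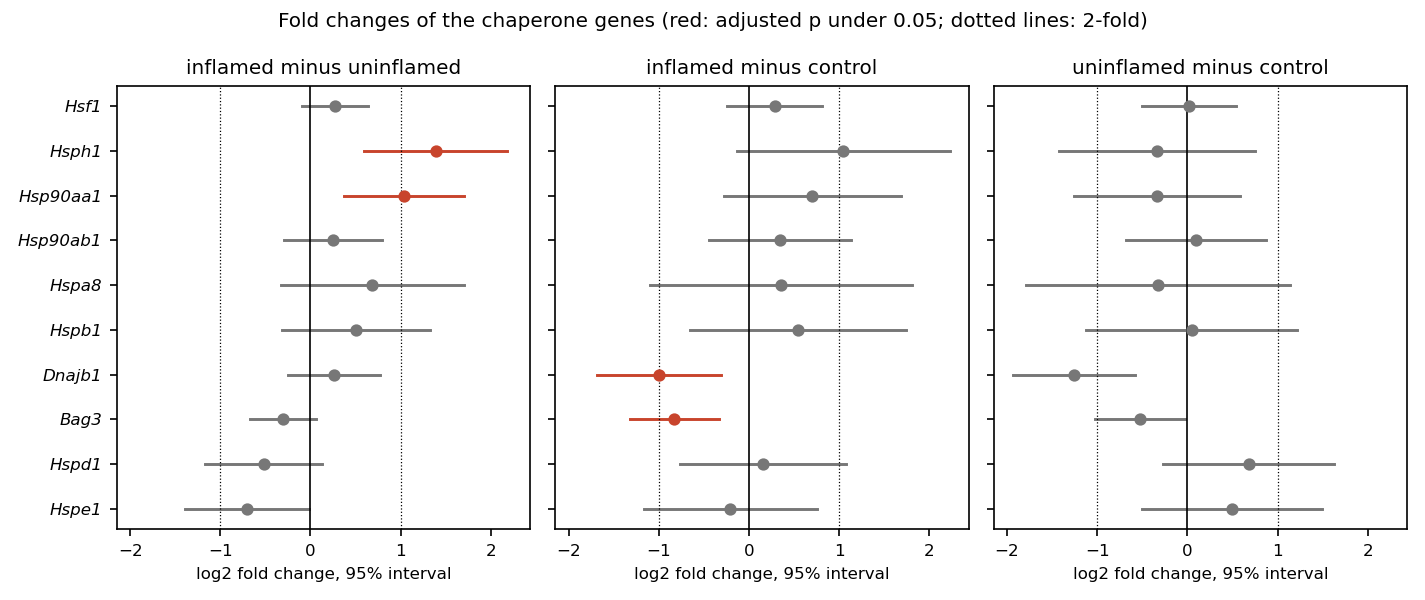
Log2 fold changes of the 10 genes with 95% intervals from edgeR's quasi-likelihood fit in I-UI, I-C and UI-C, red where the adjusted p is under 0.05, with dotted lines at a 2-fold change. Hsph1 and Hsp90aa1 lie to the right in I-UI, Dnajb1 and Bag3 lie to the left in I-C, and no point is red in UI-C.

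The mitochondrial chaperonin pair had lower levels in the inflamed region in most animals, without a call. Hspd1 encodes HSP60, which forms the folding chamber of the mitochondrial matrix, and Hspe1 encodes HSP10, its lid. Hspd1 was at 41.3 to 152.7 CPM (median 103.2) in the uninflamed, at 52.5 to 85.2 CPM (median 70.4) in the inflamed and at 93.9 and 31.9 CPM in the control libraries. Hspe1 was at 12.9 to 37.9 CPM (median 28.6) in the uninflamed, at 12.3 to 19.0 CPM (median 16.5) in the inflamed and at 29.3 and 7.35 CPM in the control libraries. For both genes every inflamed library lay within the span of the uninflamed and control ones. The inflamed region of animal 218 held more Hspd1 than its uninflamed region, and the other 5 animals held less. For Hspe1 animals 218 and 219 held more and the other 4 less. The log2 fold change in I-UI was -0.52 ± 0.30 (SE, adjusted p = 0.23) for Hspd1 and -0.70 ± 0.32 (SE, unadjusted p = 0.0452, adjusted p = 0.126) for Hspe1.

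The proportion of the pair to each other differed between the regions by less than its spread over animals. The log2 ratio of Hspe1 to Hspd1 counts was -1.95 ± 0.33 (SD, n = 6) in the uninflamed and -2.12 ± 0.15 (SD, n = 6) in the inflamed regions, and -1.67 and -2.08 in the controls. The mean difference was -0.17 ± 0.37 (SD, n = 6; p = 0.281 by the two-sided exact permutation test, adjusted p = 0.281), with 2 of 6 animals higher in the inflamed region. Across the 14 libraries Hspd1 was among the 3 named genes whose log2 CPM most resembled that of Hspe1 (Pearson r = 0.92). The others were Mrpl19 and Tomm6, which encode mitochondrial proteins. Tested genes with a placeholder name, or with coordinates in the name, were left out of this ranking. Such correlations are a description, since the libraries share animals and groups.

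The same measure of likeness placed the 2 genes that rose beside each other. It was again ranked over the named genes tested only. For Hsph1 the 3 most similar were Hsp90aa1 (r = 0.94), the glycolytic gene Pgam1 (r = 0.92) and Dnaja1 (r = 0.92), which encodes an HSP40 protein. For Hsp90aa1 they were Hsph1, Dnaja1 (r = 0.91) and Trappc2 (r = 0.87). For Dnajb1 they were Zfp691 (r = 0.88), Prr13 (r = 0.86) and Syngr3 (r = 0.85), and for Bag3 they were Nacc2, Arl13a and Slk (each r = 0.94 or 0.93). All of these are over 14 libraries, and neither Dnajb1 nor Bag3 had another of the 10 among its 3 nearest.

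Related chaperone families were counted in I-UI in the same fit, and the largest rises among them were in the inducible HSP70 genes and in Dnaja1. Of 10 other HSP70 and HSP110 genes, 5 were higher and 1 lower (median log2 fold change 0.62), against 11.6% and 12.8% of all genes tested. Hspa1a, an inducible HSP70 gene, was at 5.62 to 12.4 CPM (median 7.58) in the uninflamed, at 18.1 to 295.7 CPM (median 132.7) in the inflamed and at 38.6 and 14.04 CPM in the control libraries. Every inflamed library lay above every uninflamed one, and those of animals 219, 220 and 223 were again the 3 highest. The log2 fold change was 4.07 ± 0.67 (SE, adjusted p = 0.000925) in I-UI and 2.46 ± 0.98 (SE, adjusted p = 0.104) in I-C. Hspa1b and Hspa1l stood at 4.21 and 3.62 in I-UI, but Hspa1a and Hspa1b are near-identical copies whose counts had a ratio of 0.83 to 1.32 in every library. How the reads are divided among Hspa1a, Hspa1b and Hspa1l is therefore uncertain. The 5 higher genes include these 3, which need not be 3 separate rises. Hspa4l, a relative of Hsph1, fell by 1.08 on the log2 scale (adjusted p = 0.00022) and was lower in 6 of 6 animals.

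Among 16 other J-domain genes, 2 were higher and 1 lower (median -0.03), against 11.6% and 12.8% of all genes tested. Dnaja1 stood apart. It was at 35.6 to 56.6 CPM (median 50.4) in the uninflamed, at 116.2 to 879.7 CPM (median 405.3) in the inflamed and at 110.5 and 41.1 CPM in the control libraries. No inflamed library overlapped the uninflamed ones or the controls. The log2 fold change was 3.21 ± 0.51 (SE, adjusted p = 0.000712) in I-UI and 2.54 ± 0.78 (SE, adjusted p = 0.0382) in I-C. Dnajc13, which acts on endosomes, was higher by 0.49 (adjusted p = 0.0167) and Dnajb12, of the endoplasmic reticulum membrane, fell by 0.54 (adjusted p = 0.00708), a call that was lost with scaling by library totals only (-0.28, adjusted p = 0.29). Dnajc13 lost its call without animal 219 or 223 (adjusted p = 0.0675 and 0.0911) and under another of the alternatives (adjusted p = 0.118). Dnaja1 and Hspa1a kept their calls without any 1 animal, with log2 fold changes from 2.90 to 3.42 and from 3.63 to 4.42.

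**Figure D4:**
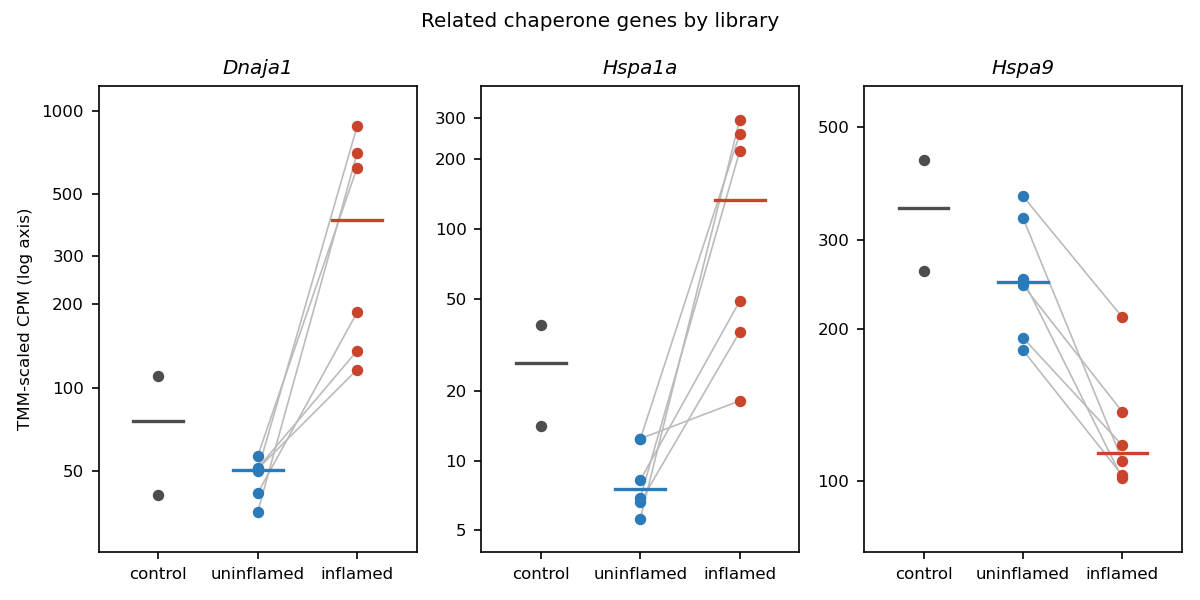
TMM-scaled CPM (log axis) of Dnaja1, Hspa1a and the mitochondrial HSP70 gene Hspa9 by library in control (n = 2), uninflamed (n = 6) and inflamed (n = 6) regions, with lines joining the regions of an animal and bars at the medians. Dnaja1 and Hspa1a rise and Hspa9 falls in 6 of 6 animals, and 3 inflamed libraries stand above the other 3 for Dnaja1 and Hspa1a.

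The partners of HSP70 and HSP90 and the folding machines of the cytosol were counted in I-UI too. There 11.6% of all genes tested were higher and 12.8% lower. Whether the counts of lists this short differ from that share was not tested. Of 16 HSP90 cochaperones, 0 were higher and 1 lower, Fkbp4, which encodes an HSP90 partner in steroid receptor complexes (log2 fold change -0.90, adjusted p = 0.0188). Of 10 BAG proteins and other HSP70 cochaperones, 0 were called in either direction, with Stub1, a ubiquitin ligase of chaperone clients, at -0.38 (adjusted p = 0.0687) and Bag1 at -0.35 (adjusted p = 0.0816). Of 14 subunits of the chaperonin TRiC and of prefoldin, which fold actin and tubulin, 0 were called, with Tcp1 at -0.66 (adjusted p = 0.259). Of 6 measured small heat shock proteins beside Hspb1, 0 were higher and 1 lower, the muscle protein gene Hspb6, which fell by 1.00 (adjusted p = 0.0293). Of 5 other heat shock factors and their partners, 1 was higher, Hsf2, at 0.53 (adjusted p = 0.0321). These 3 calls depend on single animals: Fkbp4 lost it without 219, 220, 222 or 223 (adjusted p from 0.0599 to 0.0723), Hspb6 without 218, 220 or 223 (from 0.0617 to 0.123) and Hsf2 without 219, 220, 222 or 223 (from 0.0575 to 0.114). With the animal as a block the adjusted p was 0.0603 for Hspb6 and 0.0534 for Hsf2. Hsf2 lost its call under 6 of the 15 alternatives. Scaled by library totals only it was 0.137 for Hspb6 and 0.104 for Fkbp4.

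In mitochondria the calls went down. Of 16 mitochondrial chaperones and proteases beside Hspd1 and Hspe1, 0 were higher and 6 lower in I-UI (median -0.45). Over all genes tested, 11.6% were higher and 12.8% lower. Hspa9, the HSP70 of the matrix that pulls in imported proteins, was at 181.6 to 365.5 CPM (median 247.3) in the uninflamed, at 101.4 to 211.0 CPM (median 113.9) in the inflamed and at 260.8 and 431.0 CPM in the control libraries. It fell by 1.00 ± 0.25 on the log2 scale (SE, adjusted p = 0.00818) in I-UI and by 1.41 ± 0.32 (SE, adjusted p = 0.00885) in I-C. The unfoldase gene Clpx was at -0.60 (adjusted p = 0.00452), the protease gene Afg3l2 at -0.81 (adjusted p = 0.00509) and the HSP70 partner gene Grpel1 at -0.58 (adjusted p = 0.0138). Grpel1 lost its call without animal 222 or 223 (adjusted p = 0.0553 and 0.0794). Scaled by library totals only, Hspa9 kept its call (adjusted p = 0.0409) and Clpx, Afg3l2 and Grpel1 did not (adjusted p = 0.209, 0.113 and 0.32). Of 17 genes of mitochondrial content, mostly respiratory chain subunits, 14 were lower and 0 higher (median -1.20), with summed levels of 2172 to 3601 CPM in the inflamed, 4237 to 6729 CPM in the uninflamed and 6463 to 6911 CPM in the control libraries. The part of this shift in the levels of the chaperone genes was not tested.

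In the endoplasmic reticulum 1 of 16 chaperone genes was higher, Serpinh1, the collagen chaperone HSP47, at a log2 fold change of 1.80 ± 0.34 (SE, adjusted p = 0.00178), whereas Hspa5, the main HSP70 of that compartment, was at 0.64 (adjusted p = 0.275). Of 10 factors of the unfolded protein response, 2 were higher and 2 lower, where 11.6% of all genes tested were higher and 12.8% lower. The higher ones were Ddit3, which encodes CHOP, at 2.67 (adjusted p = 0.00101), and Ppp1r15a, a phosphatase subunit that restarts translation, at 1.30 (adjusted p = 0.00479). The lower ones were the stress sensor kinase gene Eif2ak3 at -0.72 (adjusted p = 0.0126) and Herpud1 at -0.73 (adjusted p = 0.0215). Eif2ak3 lost its call without animal 219 or 222 (adjusted p = 0.0613 and 0.0637) and Herpud1 without 220, 222 or 223 (from 0.0597 to 0.111). Scaled by library totals only, both lost it (adjusted p = 0.157 and 0.189). Of 17 other genes known to be induced with HSF1, which repeat several genes of the lists above, 5 were higher and 2 lower in I-UI (median -0.04). Those 5 include both near-identical copies Hspa1a and Hspa1b. Of the 126 genes of these lists, 101 had a promoter window. Of these, 21 held GAANNTTC or TTCNNGAA, against 15.9% of all windows, and 4 held 3 units in a row, against 0.798%. The 4 were Dnaja1 and Serpinh1, which rose, and Chordc1 and Cct4, at -0.05 and 0.06 in I-UI without a call. In Dnaja1, Chordc1 and Cct4 the array lay after the start, and in Serpinh1 before it. The windows of Hspa1a and Hspa1l, which rose most beside Hspa1b, held neither motif, and Hspa1b had no window. Only exact matches inside the window were sought, so a missing match does not show that a gene lacks a heat shock element.

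**Figure D5:**
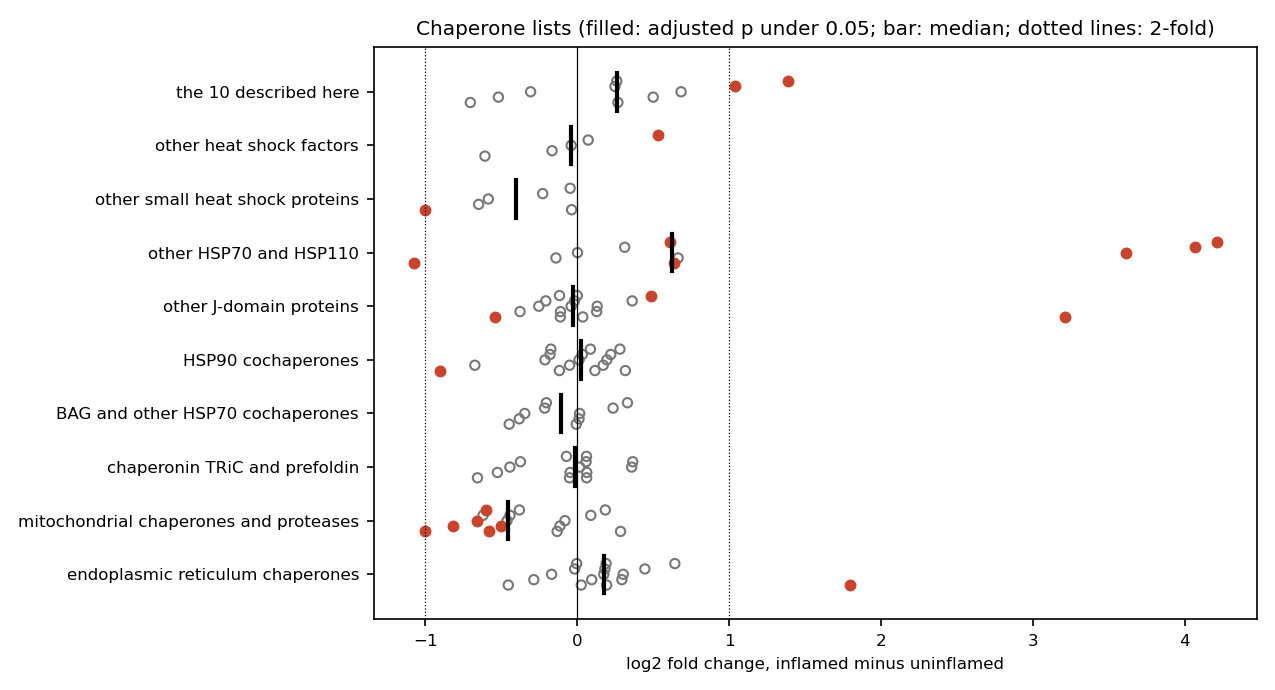
Log2 fold change in I-UI of every measured gene of 10 chaperone lists, filled where the adjusted p is under 0.05, with the median of each list as a bar and dotted lines at a 2-fold change. The points furthest right are Hspa1b, Hspa1a, Hspa1l and Dnaja1, and the 6 filled points of the mitochondrial list all lie to the left of 0.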

How the data were processed

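Whole distal colon was profiled in 14 libraries of 8 animals. According to the methods of the study, 50-base SOLiD reads were mapped to Rnor_5.0 with Ensembl 77 genes in CLC Genomics Workbench 7.5.1 (up to 2 mismatches, 10 matching places at most), and reads of ribosomal RNA genes were removed. The authors deposited the resulting counts per gene, unnormalized. Groups came from the labels. The p-values of the main fit measure the spread between libraries of a group, with both regions of an animal taken as independent. Those of the sign-flip test of the ratios measure the spread of the differences within animals.

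The counts were analysed with edgeR 4.0.16 in R 4.3.3: filterByExpr (minimum count 10), TMM factors (0.630 to 1.24), and 1 robust quasi-likelihood fit of 3 groups. "Rose" and "fell" mean an adjusted p under 0.05; the study's threshold adds a 2-fold change. CPM are on TMM-scaled library sizes. Alternatives were edgeR's exact test, DESeq2 1.42.0, limma 3.58.1 with voom, RLE or no composition scaling, no filter, each animal left out, and the animal as a block. The labels give both regions of an animal the same number, so they are paired by animal; deviations of the regions of an animal from their group means correlated at -0.12 to 0.18. Hspa8 did not pass the filter of the blocked fit or of the exact test in I-UI, both of which held only the 12 TNBS libraries.

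On simulated counts of 18354 genes the I-UI test recovered 31.3% of 2-fold and 85.9% of 4-fold changes, with 1 false call, and I-C recovered 9.09% and 63.6%, with 3 false calls. The simulation changed few genes and drew every library independently of its animal. In the data many more genes were called, so these rates need not hold there. The members and lists were chosen with earlier results of these data known. All 10 members are described. Of each other list the counts and up to 4 genes of smallest p in I-UI are named, and Zfand2a, Fpr1, Chordc1 and Cct4 were added after their values were seen. Acta2 and Ubb had no row matched, and Vdac1, with several rows, was left out.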

Additional observations from a re-analysis of the deposited data

Results flagged for a closer look

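In the inflamed library of animal 220 Hspa8 stood at 3.60 CPM, from 29 reads, far from the other 5 inflamed libraries, which lay between 0.49 and 1.59 CPM. The gap to its nearest neighbour was 0.65 of the whole range of the group. Chance alone marks about 1 in 20 groups in this way, and 24 groups of 6 libraries (10 genes and 2 ratios in both regions) were looked at. Without animal 220 the log2 fold change of Hspa8 was 0.09 in I-UI and -0.22 in I-C.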

How the results depend on the processing

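Of 428 values of the 10 genes under the alternatives, 390 kept their direction and call, 20 lost the call, 1 gained it and 17 reversed, all of the last being values without a call. Of 345 values of other genes with a call (alternatives chosen after seeing the data), 313 kept it, 32 lost it and 0 reversed. They include the immediate early genes Egr1, Ier3, Junb and Zfp36, not named above, each of which kept its call under all 15 alternatives. In I-UI the count past the threshold was 1 with limma-voom and 1 with the replicate block (Hsph1), and 0 to 2 when an animal was left out, being 0 without 219 or 223; the count without the 2-fold limit was also 0 to 2. The block changed no other call among the 10. In I-C, the count past the threshold was 1 (Dnajb1) with the exact test, DESeq2 and RLE, and 0 to 1 with an animal left out, and the count without the 2-fold limit was 1 with the exact test, without filter and with limma-voom, 0 with library totals, and 0 to 2 with an animal left out. In UI-C the exact test gave 1 by either rule. The log2 ratio of Hsp90aa1 to Hsp90ab1 (0.65) without the replicate block had p = 0.0476 (exact permutation test). The cause was not tested.

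Reversed values in I-C were Hspa8 at -0.081 and Hspe1 at 0.054 with limma-voom, and Hspe1 at 0.29 with library totals. The rest came with 1 animal left out (the range over all animals is given): in I-C Hspa8 (-0.22 to 0.68), Hsp90ab1 (-0.24 to 1.30), Hspd1 (-0.43 to 1.14) and Hspe1 (-0.88 to 1.12), and in UI-C Hsf1 (-0.052 to 0.095), Hspb1 (-0.34 to 0.59), Hsph1 (-0.98 to 0.85), Hsp90aa1 (-0.81 to 0.38), Hsp90ab1 (-0.48 to 1.05) and Hspe1 (-0.17 to 1.82). Leaving out control 216 or 217 turned 9 of these 10. With library totals the median of all genes shifted by 0.24 in I-UI, 0.62 in I-C and 0.38 in UI-C. The 2 controls limit every comparison with them, and counting noise limits Hspa8.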

Other observations

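Zfand2a, an arsenite-inducible zinc finger gene known to be induced with HSF1, was chosen after its values were seen. It was higher in I-UI by 2.52 on the log2 scale (standard error 0.45, adjusted p = 0.00146 by edgeR's quasi-likelihood test) in 6 of 6 animals, and at 1.39 in I-C without passing the test.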
